A study of Homo sapiens with 6 samples.

Results

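Naive human pluripotent stem cells induced with valproic acid (VPA), an inhibitor of histone deacetylases, were compared here with the naive cells that the same study had induced in other ways. The comparison set 1 naive VPA library against 3 other naive libraries, out of 6 bulk RNA-seq libraries in all. The 3 others were 2 libraries of cells induced with AICAR, an activator of the energy sensor AMPK, and 1 library of cells in which doxycycline switched on CA-p38, a constitutively active form of the stress kinase p38. The members were chosen by their labels alone. All cells carried the EOS-GFP reporter, which marks use of the distal OCT4 enhancer, in a human embryonic stem cell line that the labels name H1 and the text of the study names H9. The CA-p38 cells additionally carried the inducible CA-p38 construct. The primed parental EOS line and the primed CA-p38 line, with 1 library each, served as reference levels.

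By the day count of the study, VPA cells were at day 9 plus 12 passages and CA-p38 cells at day 7 plus 12 passages. AICAR cells were at day 14 plus 14 or 15 passages. These days are not always the time with the inducer. The study describes a shorter doxycycline treatment, and a further week of AICAR at a lower dose after day 14. Which AICAR library is which passage was not given. VPA had been added to a basal medium with a MEK inhibitor and LIF alone, whereas AICAR and doxycycline had been added to PXGL, which also holds the tankyrase inhibitor XAV939 and the protein kinase C inhibitor Go6983. Per the labels, naive cells were then grown in PXGL on inactivated mouse embryonic fibroblasts and sorted for CD75 and SUSD2. The text of the study also describes feeder-free culture of CA-p38 and AICAR cells, and whether that applies to these libraries was not given. The inducer, the induction medium and the culture times therefore cannot be told apart in this comparison. The library totals ran from 46823699 counts in AICAR 2 to 54277064 counts in AICAR 1, with 51748196 counts in VPA.

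The naive state resembles the pre-implantation epiblast, and the primed state resembles the epiblast after implantation. Naive cells use factors such as KLF4, KLF17, TFCP2L1 and TFAP2C, and cultures of naive cells can hold rare cells that switch on genes of the eight-cell embryo, such as ZSCAN4, LEUTX and TPRX1. Inhibition of histone deacetylases raises histone acetylation and is known to alter transcription of many genes while the compound is present.

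The VPA library carried the naive pattern. In VPA, KLF17 stood at 13.2 CPM (counts relative to the library size after scaling by the trimmed mean of M values, TMM) against at most 0.0615 CPM in the primed libraries. DPPA5, a marker of naive cells, stood at 614 CPM in VPA, between 598 and 637 CPM in the 3 others, and at 0.39 and 0.146 CPM in the primed libraries. SFRP2, a Wnt antagonist typical of primed cells, stood at 0.15 CPM in VPA and at 483 and 679 CPM in the primed libraries. Over genes that averaged 5 CPM or more, the median absolute log2 difference of VPA was 0.151 from AICAR 1, 0.172 from CA-p38 and 0.191 from AICAR 2. The 3 other libraries differed among themselves by 0.148, 0.153 and 0.156 on the same measure.

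Few single genes separated VPA from the other naive libraries. Of 31241 genes tested with edgeR's quasi-likelihood test, 19 passed an adjusted p of 0.05, which is 0.0608% of them, with 16 higher (0.0512%) and 3 lower (0.0096%) in VPA. An unadjusted p under 0.05 was reached by 3.6% of the genes on the higher side and 4.43% on the lower side. Of the 19 genes that passed the adjusted p, 18 differed by at least 2-fold. The spread behind each test came from the 3 other libraries, and the lone VPA library was assumed to vary as they did. The number of calls ran from 3 to 313 over 14 settings of the fit, and all 19 calls were shared by 10 of the 13 alternatives. Without a test, VPA lay above all 3 others in 28.4% of the genes and below all 3 in 26.8%. These shares were 27.2% and 28.6% among genes averaging 1 CPM or more, and 25.8% and 30.9% among those averaging 5 CPM or more. It stood apart by at least 1 log2 unit above the others in 711 genes (2.28%) and below them in 861 genes (2.76%).

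**Figure D1:**
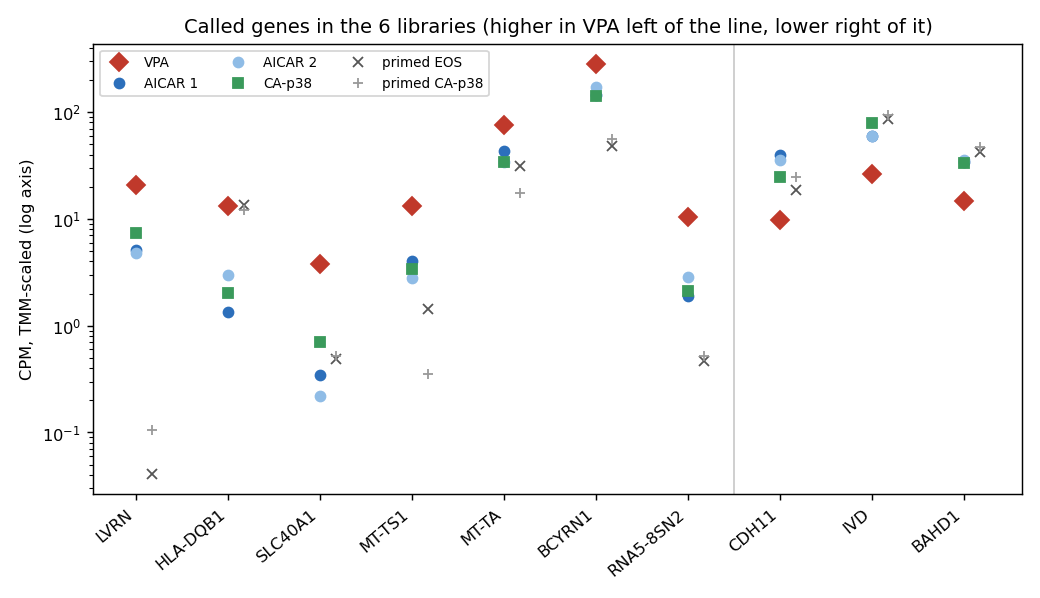
Levels of the called genes (one 5.8S rRNA identifier shown for all) in CPM on a log axis, with 1 marker for each of the 6 libraries. LVRN stood at 20.8 CPM in VPA against at most 7.31 CPM in the other naive libraries, and BAHD1 at 14.6 CPM against at least 33.2 CPM.

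The higher calls were mostly short noncoding RNAs, and the sequences of the ribosomal and transfer RNAs among them are shown because these make up most of what passed the test. They were read from GENCODE release 44 on GRCh38, with the longest run of A in capitals where it holds at least 5 bases. RNA5-8SN2, a gene of the 5.8S ribosomal RNA, lies at chr21:8212572-8212724 on the plus strand. The mitochondrial transfer RNA genes MT-TA (alanine), at chrM:5587-5655, and MT-TS1 (serine), at chrM:7446-7514, lie on the minus strand.
RNA5-8SN2: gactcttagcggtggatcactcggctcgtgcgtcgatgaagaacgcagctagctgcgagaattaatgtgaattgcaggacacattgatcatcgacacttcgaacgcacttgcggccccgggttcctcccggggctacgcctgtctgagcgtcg
MT-TA: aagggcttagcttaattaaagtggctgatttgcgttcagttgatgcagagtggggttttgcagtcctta
MT-TS1: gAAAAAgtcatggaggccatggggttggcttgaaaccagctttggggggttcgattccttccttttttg

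BCYRN1 (BC200), a noncoding RNA descended from an Alu element, had the highest level of the called genes. It stood at 279 CPM in VPA, against 144 and 172 CPM in the AICAR libraries and 140 CPM in CA-p38, so that VPA lay above all 3 (log2 fold change 0.89 ± 0.13 SE, adjusted p = 0.0218, edgeR). The call was lost with all 6 libraries in the fit (adjusted p marginally above 0.05) and with the parental line as a covariate (0.0809). The primed libraries were lower still, at 47.9 and 56.1 CPM.

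The 5.8S ribosomal RNA was counted under many identifiers. Of the 16 higher calls, 10 were at near-identical levels: 8 carry a 5.8S name and 2, AL592188 and AL353644, are unnamed identifiers without a position. They fall outside the rule for named genes, since their mean level was below 5 CPM, and are named after their values were seen. The 4 copies with a position lie on chromosome 21 and have 1 distinct sequence of 153 bases, so reads cannot be assigned among them and the calls are not independent. Each identifier stood between 9.7 and 11 CPM in VPA and between 1.73 and 3.25 CPM in the 3 others. Summed over the 10, VPA held 104 CPM, against 19.4 and 28.3 CPM in the AICAR libraries and 25.3 CPM in CA-p38. The primed libraries held 5.25 and 4.35 CPM. The adjusted p ran from 0.0203 to 0.0257 (edgeR), with log2 fold changes of 2.03 to 2.22. For RNA5-8SN2 it was 0.0691 with the parental line as a covariate.

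MT-TS1 stood at 13.2 CPM in VPA, 4.02 and 2.79 CPM in the AICAR libraries and 3.38 CPM in CA-p38 (log2 fold change 1.96 ± 0.27 SE, adjusted p = 0.0203, edgeR). MT-TA stood at 75.2 CPM in VPA, against 43.1, 33.8 and 33.9 CPM (log2 fold change 1.04 ± 0.16 SE, adjusted p = 0.0366). For both, the single VPA library was the highest, as it was for 28.4% of all genes tested. With all 6 libraries in the fit, the adjusted p was 0.268 for MT-TS1 and 0.29 for MT-TA, which ended both calls. Whether the counting used strand is not stated, so reads from these genes and from the opposite mitochondrial strand cannot be told apart.

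These transcripts are short, and the libraries were made from polyadenylated RNA. Among the 22 mitochondrial transfer RNAs tested, the 2 above were called higher and none lower, the median log2 fold change was 0.50, and VPA lay above all 3 others for 14 and below them for 0. Of all genes tested, 0.0512% were called higher, 28.4% lay above the 3 others and 26.8% below. MT-TQ (glutamine) stood at 5.23 CPM in VPA against 1.58, 0.962 and 0.59 CPM, with an adjusted p of 0.14 (edgeR). The 15 other mitochondrially encoded genes, which hold the messenger and ribosomal RNAs, gave no call and a median of 0.22. MT-CO1, the first subunit of cytochrome c oxidase, had 11316 CPM in VPA, against 9704, 8107 and 10415 CPM. The mitochondrial share of all counts was 3.73% in VPA, 3.49% and 3.14% in the AICAR libraries and 3.42% in CA-p38.

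3 protein-coding genes were called higher. LVRN, which encodes the membrane aminopeptidase laeverin, lies at chr5:115962454-116027619 and stood at 20.8 CPM in VPA, 5.06 and 4.83 CPM in the AICAR libraries and 7.31 CPM in CA-p38. Its log2 fold change was 1.87 ± 0.25 SE with an adjusted p of 0.0203 (edgeR), and it was called under all 13 alternatives. The primed libraries held 0.041 and 0.105 CPM, so VPA lay further from the primed level than the other naive libraries did.

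SLC40A1, the iron exporter ferroportin, lies at chr2:189560590-189583758 and stood at 3.81 CPM in VPA, 0.346 and 0.22 CPM in the AICAR libraries and 0.707 CPM in CA-p38 (log2 fold change 3.17 ± 0.51 SE, adjusted p = 0.0374, edgeR). With all 6 libraries in the fit the adjusted p was marginally above 0.05, and with the parental line as a covariate it was 0.0517, so both ended the call. It was the only one of 354 transporter genes of the SLC family tested that was called. That family had a median log2 fold change of 0.01.

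HLA-DQB1, which encodes a beta chain of MHC class II, falls below 5 CPM on average and is named after its values were seen. Its identifier at chr6:32659467-32668383 stood at 13.1 CPM in VPA, 1.33 and 3.01 CPM in the AICAR libraries and 2.04 CPM in CA-p38 (log2 fold change 2.64 ± 0.35 SE, adjusted p = 0.0203, edgeR). The primed libraries held 13.5 and 12 CPM, and VPA was near them. The table lists the gene under 7 identifiers, among which reads can be split. Summed over these, VPA held 16 CPM against 2.71, 6.19 and 4.83 CPM, and the adjusted p was 0.0997, so the call was lost.

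3 genes were called lower. CDH11, a type II cadherin of mesenchymal cells, lies at chr16:64943753-65126112 and stood at 9.7 CPM in VPA, 40 and 35.3 CPM in the AICAR libraries and 24.7 CPM in CA-p38. It fell by 1.77 ± 0.26 SE on the log2 scale (adjusted p = 0.0203, edgeR). The primed libraries stood at 18.8 and 24.9 CPM, both above VPA, and the higher of them lay within the range of the other naive libraries. With the parental line as a covariate the adjusted p was 0.0517, which ended the call. CDH11 was the only call among 21 cadherin genes tested. CDH1, the epithelial cadherin, stood at 281 CPM in VPA and between 279 and 344 CPM in the 3 others.

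IVD and BAHD1 are neighbours on chromosome 15. IVD encodes isovaleryl-CoA dehydrogenase, an enzyme of leucine breakdown, lies at chr15:40405485-40435947 and stood at 26.6 CPM in VPA, 60 and 59.4 CPM in the AICAR libraries and 78.5 CPM in CA-p38. It fell by 1.30 ± 0.19 SE on the log2 scale (adjusted p = 0.0203, edgeR). BAHD1, a protein of heterochromatin, lies at chr15:40439721-40468236 and stood at 14.6 CPM in VPA against 34.4, 35.6 and 33.2 CPM. It fell by 1.23 ± 0.18 SE (adjusted p = 0.0203). With the parental line as a covariate both calls were lost, with adjusted p of 0.0510 for IVD and 0.0684 for BAHD1. Both were at least as high in the primed libraries as in the AICAR libraries, with 85.4 and 94.1 CPM for IVD and 42.1 and 47.3 CPM for BAHD1.

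The genes next to this pair gave no call, but VPA lay below all 3 others for each of the 3 neighbours that follow. KNSTRN, a kinetochore and spindle protein just before IVD, stood at 40.3 CPM in VPA against 69.2, 68.7 and 61 CPM (log2 fold change -0.71 ± 0.15 SE, adjusted p = 0.237, edgeR). CCDC32 had 7.69 CPM in VPA against 13.9, 12.1 and 11.3 CPM (-0.68 ± 0.24 SE, adjusted p = 0.542). The long noncoding RNA AC091045, which overlaps CCDC32, had -1.42 ± 0.44 SE. CHST14, RPUSD2 and KNL1 in the same stretch had values between -0.46 and -0.25. Further out, INAFM2 had 0.78 ± 0.29 SE and PLCB2 0.61 ± 0.27 SE on one side, and RMDN3 had 0.11 ± 0.17 SE on the other. This stretch was looked at after the pair had been seen.

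**Figure D2:**
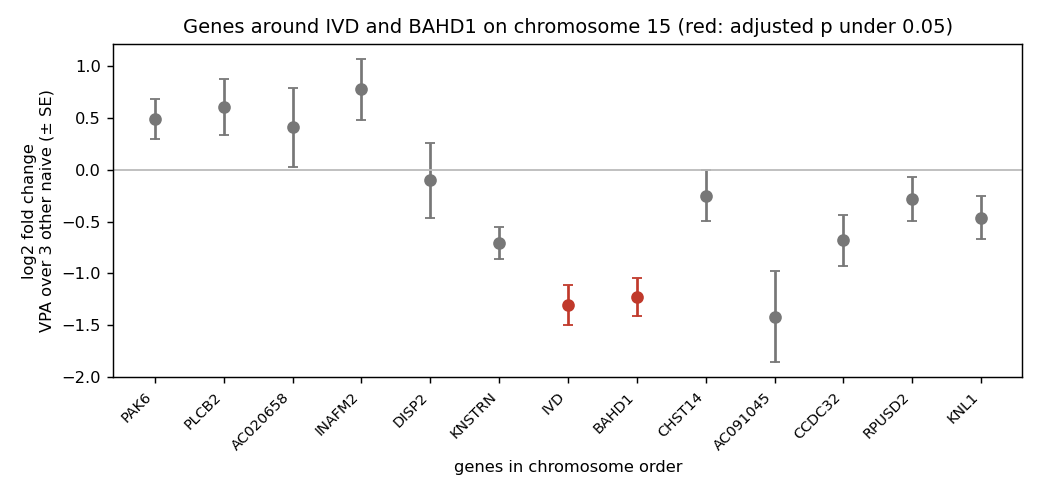
Fitted log2 fold change of VPA over the 3 other naive libraries, with its SE, for genes averaging 1 CPM or more around IVD and BAHD1, in chromosome order. The called pair (red) stood at -1.30 and -1.23, while INAFM2 stood at 0.78 and KNL1, the last gene shown, at -0.46.

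Genes of the eight-cell embryo had mostly low values in VPA, and none passed the test. A member could pass the filter on low counts through the other naive libraries alone, and 3 of the 22 had 0 counts in VPA, so the counts over members describe the values and support nothing. Of 22 tested, 0 were called by edgeR, 14 had an unadjusted p under 0.05 on the lower side, and the lowest adjusted p was 0.272. The median log2 fold change was -1.45, beside -0.01 over all genes tested. VPA lay below all 3 others for 16 of the 22 and above them for 0, and by at least 1 log2 unit for 7. Among the 13 members averaging 1 CPM or more, VPA lay below all 3 others for 11, where the share over all genes of that level was 28.6%. In bulk RNA, fewer cells with these transcripts and less RNA per cell cannot be told apart.

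CA-p38 was also low for these genes. TPRX1, a homeobox factor of the cleavage embryo, stood at 0.45 CPM in VPA, 2.68 and 4.43 CPM in the AICAR libraries and 1.53 CPM in CA-p38. ZSCAN4, a zinc finger gene active at genome activation, stood at 1.67 CPM in VPA and 1.24 CPM in CA-p38, against 3.73 and 5.99 CPM in the AICAR libraries, so that VPA was not the lowest. TRIM43 stood at 3.21 CPM in VPA and 3.4 CPM in CA-p38, against 10.2 and 14.3 CPM. LEUTX had 0 counts in VPA and 61 counts over the 3 others, which makes it at least 6.98-fold lower, taking 3 counts per library as the floor.

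Each library can be set against the mean of AICAR 1, AICAR 2 and CA-p38. By the median over the eight-cell genes, VPA then stood at -1.23 log2 units, CA-p38 at -0.98, AICAR 1 at 0.20 and AICAR 2 at 0.89. Against CA-p38 alone the median difference of VPA was -0.32. The summed level of the list was 45.7 CPM in VPA, 59 CPM in CA-p38, 117 CPM in AICAR 1 and 153 CPM in AICAR 2. KLF17 is part of this sum and is also counted among the naive markers and the KLF family below, so these lists are not independent. The primed libraries held 2.65 and 2.15 CPM.

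The PRAME family, which includes genes expressed in the cleavage embryo and in testis, went further down. Of 24 members, 13 passed the filter on low counts, 3 of them also on the eight-cell list, and the same limit holds for their counts. VPA lay below all 3 others by at least 1 log2 unit for 10 of the 13, and 4 had 0 counts in VPA. Of all genes tested, 2.76% lay that far below. PRAMEF1 had 0 counts in VPA and 64 over the 3 others, at least 7.32-fold lower against the same floor. PRAMEF12 stood at 0.0751 CPM in VPA, 1.35 and 2.46 CPM in the AICAR libraries and 0.55 CPM in CA-p38 (adjusted p = 0.272, edgeR). PRAMEF15 had 1 count in VPA and 69 counts over the 3 others, a ratio of 23.7 with a 95% counting interval of 4.11 to 949. PRAME itself, the family's founding member, did not share this: VPA held 4.62 CPM, within the range of 2.26 to 7.7 CPM. The fitted median was -4.02, and -2.82 with the members at 0 counts set at their bound.

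**Figure D3:**
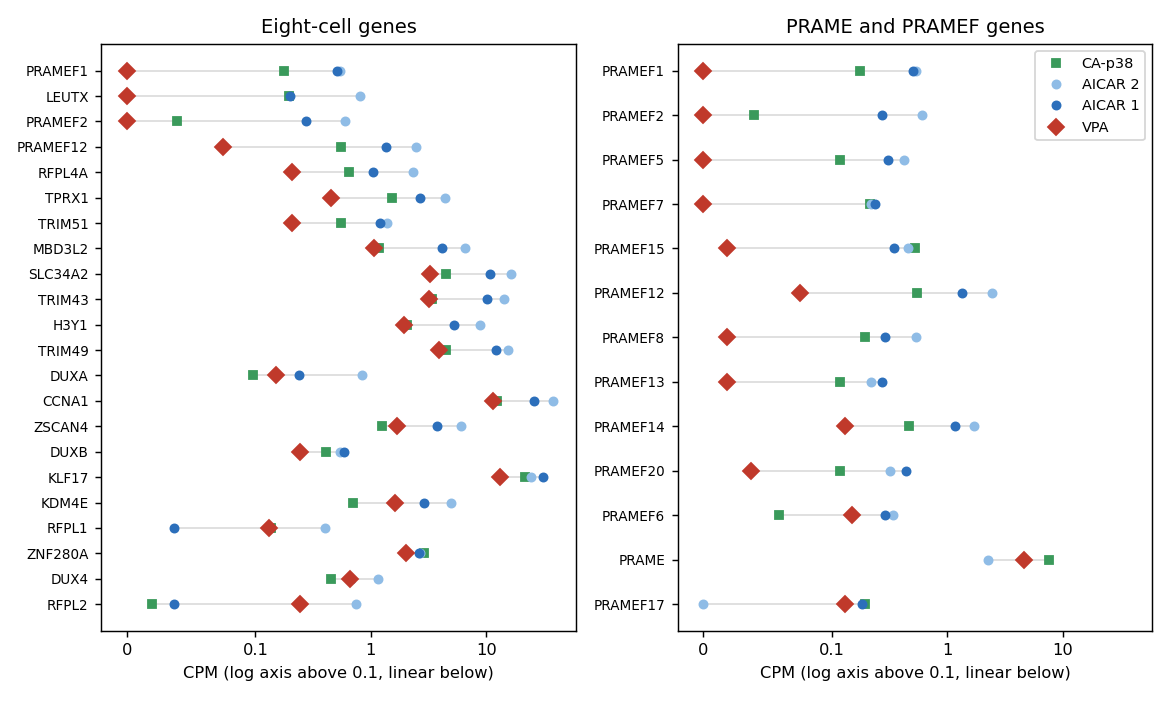
Levels in CPM of the eight-cell genes and the PRAME family in the 4 naive libraries, on an axis that is linear below 0.1 and logarithmic above it; grey lines span the 4 libraries. VPA (diamonds) lay lowest for 16 of 22 and 10 of 13 genes, and CA-p38 (squares) lay beside it for TRIM43 at 3.4 CPM.

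The naive factors leaned lower in VPA, with a small median change and no call. Of 28 naive markers tested, 0 were called by edgeR, with 2 higher and 8 lower at an unadjusted p under 0.05, and the median log2 fold change was -0.10. VPA lay below all 3 others for 13 and above them for 5. All 28 averaged 1 CPM or more, and of all genes of that level 28.6% lay below and 27.2% above. At an unadjusted p under 0.05 (edgeR), 3.6% of all genes tested were higher and 4.43% lower. KLF17 stood at 13.2 CPM in VPA against 30.9, 24.1 and 21.4 CPM (log2 fold change -0.93 ± 0.23 SE, adjusted p = 0.362). TFCP2L1 stood at 101 CPM against 122, 124 and 125 CPM, and KLF4 at 253 CPM against 309, 285 and 292 CPM. DPPA2, a chromatin regulator of early embryos, was among those above the range, with 47.3 CPM against 33, 30.9 and 33.9 CPM. SUSD2 was used in the sort, and its values are no finding.

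Members of the KLF family, zinc finger factors of which several uphold naive pluripotency, were mostly lower. VPA lay below all 3 others for 11 of the 17 tested and above them for 3, with a median of -0.37 and 0 calls by edgeR (7 lower and 0 higher at an unadjusted p under 0.05). Over all genes tested, 26.8% lay below and 28.4% above, and 4.43% were lower at that unadjusted p. KLF5 stood at 146 CPM in VPA against 202, 180 and 191 CPM, and KLF3 at 56.6 CPM against 76.6, 87.4 and 70.8 CPM.

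Primed genes were not raised in VPA. Of 27 primed markers tested, 0 were called, with 0 higher and 4 lower at an unadjusted p under 0.05, and VPA lay above all 3 others for 1 and below them for 12 (median log2 fold change -0.36). The shares over all genes tested were 28.4% above and 26.8% below. TCF7L1, a repressor of Wnt targets, stood at 6.92 CPM against 14, 13 and 13.9 CPM, and at 200 and 208 CPM in the primed libraries. Among the 19 called identifiers, VPA and the mean of the primed libraries lay on the same side of the mean of the other naive libraries for 3. These were HLA-DQB1, CDH11 and SLC40A1. Over genes averaging 5 CPM or more, that share was 48.4%. The 19 are not independent, since 10 of them are the 5.8S group at near-identical levels. For SLC40A1 both primed libraries, at 0.492 and 0.523 CPM, were within the range of the other naive libraries.

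Output genes of the ERK pathway, which the MEK inhibitor in the medium blocks, were lowest in VPA among the naive libraries for 10 of the 20 tested. The share over all genes tested was 26.8%. DUSP4, DUSP6, SPRY1, SPRY4, ETV4 and ETV5 are also on the list of primed markers, so these lists are not independent. The median of the ERK genes was -0.75 on the log2 scale with 0 calls by edgeR, and 7 had an unadjusted p under 0.05 on the lower side. Several members were at few counts. Among the 14 averaging 1 CPM or more, the median was -0.55 and VPA was lowest for 8, beside 28.6% of all genes of that level. MYC stood at 3.62 CPM in VPA, 14.6 and 10.1 CPM in the AICAR libraries and 6.8 CPM in CA-p38, against 55.3 and 73.2 CPM in the primed libraries (adjusted p = 0.368). SPRED2, a feedback inhibitor of RAF, stood at 7.86 CPM against 13.5, 15 and 13.6 CPM. CCND1, cyclin D1, stood at 21 CPM against 31.3, 47.9 and 29.5 CPM.

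Markers of other cell types gave no call. Of 21 trophectoderm genes tested, VPA lay below all 3 others for 10 and above for 2, and GATA3 stood at 0.375 CPM against 2.42, 2.3 and 0.707 CPM. Over all genes tested, 26.8% lay below and 28.4% above. CA-p38 was low as well: the summed level was 399 CPM in VPA, 393 CPM in CA-p38, 498 CPM in AICAR 1 and 546 CPM in AICAR 2. As with the eight-cell genes, members could pass the low-count filter through the other libraries alone. TP63 had 0 counts in VPA, and ELF5 and CGA had 1 count each. NR2F2, a nuclear receptor of differentiating trophoblast and mesenchyme, stood at 0.113 CPM in VPA against 1.26, 1.58 and 1.3 CPM (log2 fold change -3.58 ± 0.67 SE, adjusted p = 0.136, edgeR). Of 7 amnion genes, VPA lay below all 3 others for 6, beside the same 26.8% of all genes, with ISL1, a LIM homeobox factor, at 1.18 CPM against 3.44, 4.27 and 3.85 CPM. GATA3 is on both the trophectoderm and the amnion list, so these lists are not independent. The summed level of the 14 fibroblast genes tested was 491 CPM in VPA and 460, 520 and 479 CPM in the 3 others, and LUM, which encodes lumican, had 0 CPM in VPA and in AICAR 2.

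Cytosolic ribosomal protein genes were mostly highest in VPA, by small amounts. Of 85 cytosolic ribosomal protein genes tested, VPA lay above all 3 others for 71 and below them for 2. Their median change was 0.21 on the log2 scale with 0 calls by edgeR, although 28 had an unadjusted p under 0.05 on the higher side. Over all genes tested, 28.4% lay above and 26.8% below, and 3.6% were higher at that unadjusted p. RPL32 stood at 916 CPM in VPA, 757 and 589 CPM in the AICAR libraries and 598 CPM in CA-p38. These genes took 10.2% of all counts in VPA, 9.51% and 8.69% in the AICAR libraries and 8.86% in CA-p38. The primed libraries held 5.98% and 5.67%. Mitochondrial ribosomal protein genes did not share this, with 20 of 78 above the range, 8 below it and a median of 0.05.

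Nuclear genes of the respiratory chain followed the same order. VPA lay above all 3 others for 26 of 42 and below them for 2, with a median of 0.12 and 0 calls by edgeR (6 higher and 0 lower at an unadjusted p under 0.05). Over all genes tested, 28.4% lay above and 26.8% below, and 3.6% were higher at that unadjusted p. Without AICAR 2 the median was 0.06. COX5B, a subunit of cytochrome c oxidase, stood at 493 CPM in VPA against 434, 345 and 349 CPM. Proteasome subunits had a median of 0.06, with 21 of 45 above the range.

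Genes of glycolysis and the hypoxia response stood highest in VPA for 25 of 37 and lowest for 3, with a median of 0.23 and 0 calls by edgeR (12 higher and 0 lower at an unadjusted p under 0.05). VPA was highest for 28.4% and lowest for 26.8% of all genes tested, and 3.6% were higher at that unadjusted p. ADM, the vasodilator adrenomedullin, stood at 15.7 CPM in VPA, 8.27 and 5.93 CPM in the AICAR libraries and 6.33 CPM in CA-p38 (log2 fold change 1.21 ± 0.25 SE, adjusted p = 0.201, edgeR). DDIT4, an inhibitor of mTOR signalling, stood at 81.2 CPM against 45.5, 31.4 and 52.9 CPM. LDHA, lactate dehydrogenase A, stood at 254 CPM against 156, 127 and 199 CPM. CA-p38 was the nearest to VPA: against the mean of the 3 others, the median over the list was 0.24 for VPA, 0.16 for CA-p38, -0.01 for AICAR 1 and -0.12 for AICAR 2.

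**Figure D4:**
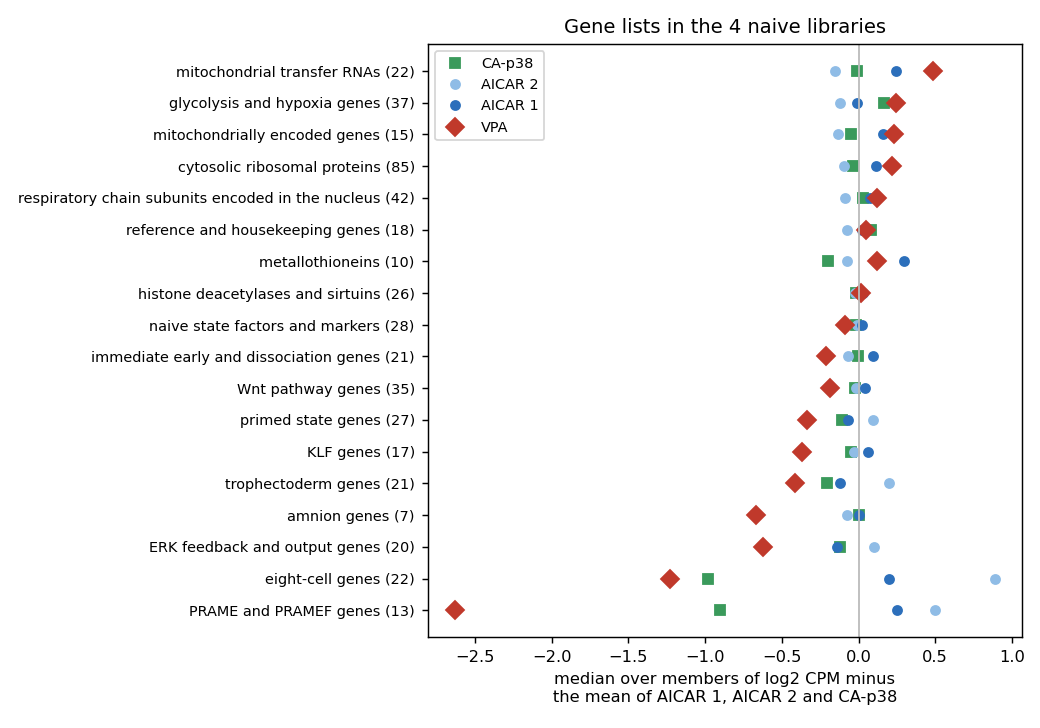
Median over the members of each gene list (number tested in brackets) of log2 CPM minus the mean of AICAR 1, AICAR 2 and CA-p38, for each of the 4 naive libraries. VPA (diamonds) stood at -2.63 for the PRAME family, at -1.23 for the eight-cell genes, where CA-p38 stood at -0.98, and at 0.49 for the mitochondrial transfer RNAs.

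A list that joined histone deacetylases, the targets of VPA, with sirtuins and co-repressors was level. Of 26 histone deacetylases, sirtuins and co-repressors tested, 0 were called, 6 lay above the range and 9 below it, and the median was -0.01. Among the sirtuins, SIRT3, a mitochondrial deacylase, stood at 11.6 CPM in VPA against 8.25, 7.47 and 6.98 CPM. SIRT1 stood at 74.8 CPM against 91.5, 91.6 and 92.1 CPM. The metallothioneins, small zinc-binding proteins, had a median of 0.09 over 10 genes, and 18 reference and housekeeping genes had a median of 0.05.

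Level also moved with transcript length, and its part in the results above was not tested. Protein-coding genes averaging 5 CPM or more were split into 5 groups of equal size by their longest transcript in GENCODE. In the group of shortest transcripts (207 to 2306 bases, 2163 genes) VPA lay above all 3 others for 42.9% of the genes and below them for 14.4%, with a median change of 0.09 on the log2 scale, which was 0.09 also without the ribosomal protein genes. In the group of longest transcripts (6429 to 109224 bases) the shares were 12.6% above and 45.8% below, with a median of -0.11. Of the 84 ribosomal protein genes with this level, 54 were in the shortest group, as were 25 of 41 respiratory chain genes and 8 of 33 glycolysis and hypoxia genes. Only 5 eight-cell genes reached this level. The median length over all tested eight-cell genes with a length in GENCODE was 1734 bases.

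**Figure D5:**
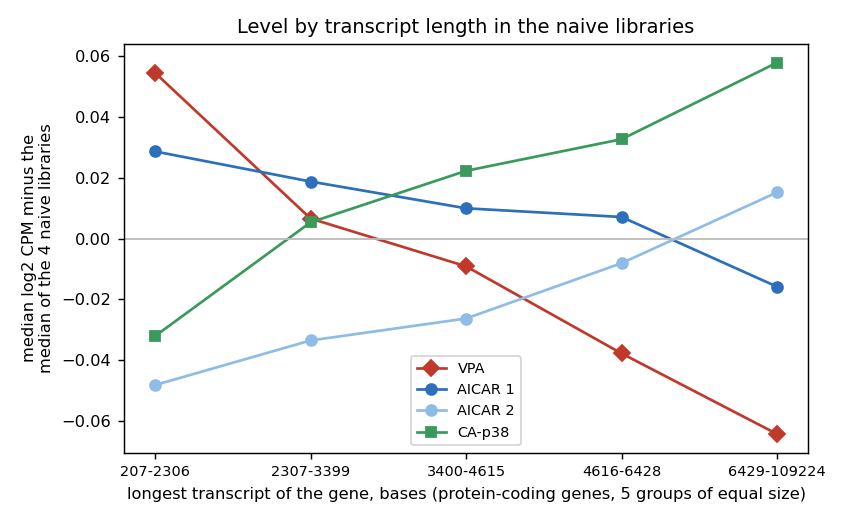
Median over protein-coding genes of log2 CPM minus the median of the 4 naive libraries, by transcript length in bases, in 5 groups of equal size. VPA ran from 0.05 in the shortest group to -0.06 in the longest, and CA-p38 from -0.03 to 0.06.

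By chromosome, the mitochondrial genes and those on X had higher medians than any autosome. Over 11868 genes averaging 5 CPM or more that have a position, the median log2 fold change of the 22 autosomes ran from -0.06 on chromosome 18 (167 genes) to 0.03 on chromosome 22 (317 genes). It was 0.08 on chromosome X (382 genes) and 0.24 on the mitochondrial chromosome (21 genes).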

How the data were processed

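RNA of the 4 naive and 2 primed cultures had been enriched for polyadenylated RNA, and a stranded SMART-Seq kit was used for the libraries. The authors deposited unnormalised counts, summed for each Ensembl gene. Per the labels, trimming used Trim Galore 0.4.4 with cutadapt 1.15. Reads were mapped with Bowtie2 to the cDNA and noncoding RNA of Ensembl GRCh38, keeping a mapping quality of at least 1, so near-identical copies share reads. Of 61222 features, 26 spike-ins were left out, and 23 columns of other samples were not used.

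edgeR 4.0.16 in R 4.3.3 (glmQLFit, glmQLFTest, TMM scaling, filterByExpr) tested VPA against the 3 other naive libraries over 31241 genes, with 2 residual degrees of freedom, a common dispersion of 0.0604 and Benjamini-Hochberg adjustment at 0.05. SEs were derived from the F statistic. CPM values were scaled over the 6 libraries, and ranges used log2 CPM with a prior count of 2. Exact permutation of 1 against 3 libraries cannot go below a two-sided p of 0.25 and was not used. DESeq2 1.42.0 and limma 3.58.1 were alternatives, and the tests were checked on simulated data. Python 3.11.15 did the rest.

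Genes were named by a rule: up to 10 higher and 10 lower calls averaging 5 CPM or more with VPA outside the range of the others, every call of a list with at least 3 of them, and up to 3 calls of each family. Values of uncalled genes illustrate their lists and were chosen after they were seen, as were the split by length, the 1 CPM limit, the view of chromosome 15 and the comparison with single libraries. The 41 lists and 40 families, and the comparison itself, were chosen with earlier results of these data known. Nothing says that the libraries came from separate cultures, so p-values measure only the spread between these samples. The AICAR libraries differed beyond sampling noise (chi-square per gene 22.2 over 22739 genes) and counted as 2. Intervals and floors cover counting error only.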

Additional observations from a re-analysis of the deposited data

Results flagged for a closer look

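In 6 of 10 called genes examined, VPA lay so far from the other 3 naive libraries that its gap to the nearest, as a share of the whole range of CPM, exceeded the 95% critical value of Dixon's test for 4 samples. The gap was 0.844 of the range for LVRN, 0.858 for HLA-DQB1, 0.864 for SLC40A1, 0.88 for MT-TS1 and 0.89 for RNA5-8SN2, in each of which VPA was highest, and 0.882 for BAHD1, in which VPA was lowest. These genes had been called on the same libraries, so the gaps are no separate evidence, and chance alone gives such a gap in about 1 of 20 groups.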

How the results depend on the processing

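The number of calls depended strongly on the fit, and the cause was not tested. The counts of higher, lower and at least 2-fold calls were 16, 3 and 18 as reported. They were 54, 52 and 63 with no filter beyond 1 count, 34, 58 and 46 with DESeq2, and 151, 124 and 166 with the AICAR libraries summed, which leaves 1 residual degree of freedom fewer. Leaving out each of the 3 other naive libraries in turn gave 65 to 222 higher, 66 to 135 lower and 72 to 231 at least 2-fold calls, where without AICAR replicate 1 gave 222 higher and without AICAR replicate 2 gave 65. All 19 calls stayed among them each time. With all 6 libraries there were 9 higher and 4 lower calls, and with the parental line as covariate 3, 0 and 3. Scaling, limma-voom, at least 10 counts in every naive library and summing identifiers of a symbol kept these counts within 1.5 times. Of the 10 named calls, LVRN was called in all 13 alternatives, and 13 of 130 values of the 10 lost the call, none with a change of direction.

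Genes standing apart without a test numbered 711 above and 861 below at 1 log2 unit, 2258 and 2106 at 0.5, and 102 and 158 at 2; with a prior count of 5, 519 lay below. The median of the eight-cell genes ran from -1.84 to -1.08 over the alternatives, that of the ribosomal protein genes from 0.17 to 0.27. That of the PRAME family was -0.05 where at least 10 counts in every naive library were required, which removes its low members. Chromosome medians, for chromosomes 18 and M, and the count on the primed side stayed close to the reported values. No paired analysis was possible because the groups share fewer than 2 replicate numbers. Genes at a few counts, such as the PRAMEF genes, are limited by depth.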

Other observations

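The imprinted gene PEG3 and the oocyte gene NLRP4 held the values nearest to the threshold without passing it. PEG3, a paternally expressed zinc finger gene, stood at 13.2 CPM in VPA, 32.1 and 28.4 CPM in the AICAR libraries and 27.7 CPM in CA-p38, below all 3 (log2 fold change -1.15 ± 0.19 SE, adjusted p = 0.0644, edgeR). MEST, another paternally expressed gene, lay above all 3, at 31.4 CPM against 16.3, 19 and 15.6 CPM (adjusted p = 0.201). Over 52 imprinted genes tested, VPA lay above the range for 13 and below it for 16, with a median of -0.07 and 0 calls. The shares over all genes tested were 28.4% above and 26.8% below, so the imprinted genes as a list did not stand out. NLRP4, a gene of the oocyte, stood at 1.86 CPM in VPA against 6.94, 7.87 and 6.31 CPM (log2 fold change -1.91 ± 0.33 SE, adjusted p = 0.0714), while its relative NLRP7 stood at 783 CPM, within the range of the others.

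Genes of antigen presentation differed in direction. HLA-DQA1, which encodes an alpha chain of MHC class II, had 209 CPM in VPA when summed over its 5 identifiers, below the 3 others at 268, 272 and 239 CPM (adjusted p = 0.597, edgeR). HLA-F stood at 44.1 CPM, within the range of the others. B2M, the light chain of MHC class I, stood at 19.1 CPM in VPA against 12.2, 11.7 and 10.1 CPM (adjusted p = 0.446, edgeR). HLA-C, summed over its 7 identifiers, stood at 71.1 CPM against 30.8, 39.1 and 36.2 CPM, with 213 and 222 CPM in the primed libraries, and with identifiers summed its adjusted p was 0.0304. This set was looked at after HLA-DQB1 had been seen. Of 30 interferon and innate immune genes, VPA lay above the range for 14 and below it for 7, with 0 calls. Over all genes tested, 28.4% lay above and 26.8% below.

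Zinc finger genes of the ZNF series leaned downward, with 186 of 473 below the range and 77 above it, a median of -0.09 and 0 calls. Over all genes tested, the shares were 26.8% below and 28.4% above. The ZNF genes had a median length of 4233 bases. Protein-coding genes of 3400 to 4615 bases averaging 5 CPM or more had shares of 31.5% below and 21.8% above. The part of length in this lean was not tested. ZNF208 stood at 222 CPM in VPA against 323, 358 and 349 CPM (adjusted p = 0.176, edgeR). Processed pseudogenes, which can take reads from their parent genes, leaned upward. Of 3088 tested, 1300 lay above the range and 514 below it, beside 28.4% and 26.8% over all genes.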
